A study of Homo sapiens with 8 samples.

Results

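The angiomotins and the core of the Hippo pathway were examined in human lens epithelial cells with and without a knockdown of SMURF1, as 10 named genes: AMOT, AMOTL1, AMOTL2, NF2, WWC1, LATS1, LATS2, YAP1, WWTR1 and TEAD1. They were found by matching the Ensembl identifiers of the count table to GENCODE release 29, and all 10 were present among 58735 genes and passed the filter on low counts that left 15647 genes for the test. The set was put together with the comparison of the 2 groups already known, AMOT being among the most changed genes. Fold changes of the 10 genes are therefore descriptions, given with a standard error and without a p-value.

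In the Hippo pathway the scaffold proteins NF2 (merlin) and WWC1 (KIBRA) at the cell cortex activate the kinases LATS1 and LATS2, which phosphorylate the transcriptional coactivators YAP1 and WWTR1 (TAZ) and keep them out of the nucleus. Unphosphorylated YAP1 and WWTR1 bind TEAD factors such as TEAD1 and switch on genes of growth, adhesion and the cytoskeleton. Angiomotins are junction- and actin-associated scaffolds that bind YAP1 and WWTR1 through short proline-tyrosine motifs, also recruit LATS kinases, and are substrates of ubiquitin ligases of the NEDD4 family, to which SMURF1 belongs. In epithelial cells the pathway is known for reading cell density, polarity and tension.

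The cells were SRA01/04, an established human lens epithelial line made with the large T antigen of a virus. One group of 4 libraries came from cells with a control hairpin (shControl, genotype labelled WT) and the other of 4 from cells with a hairpin against SMURF1 (shSmurf1, genotype labelled Smurf1 knockdown). Recombinant TGF-β2 (20 ng/ml, 48 h) had been given to all 8, so neither group shows the state without it. A second hairpin and a rescue are not named in the labels, nor whether each line is 1 clone, so the effect of the knockdown and any other difference of the 2 lines cannot be told apart. The replicates are labelled biological but separate cultures are not described, and errors measure the spread between these libraries.

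Library totals ranged from 14688651 to 17030394 counts. SMURF1 itself (ENSG00000198742) lay between 85.8 and 93.3 CPM (counts scaled to a common library size) in shControl and between 50.4 and 51.4 CPM in shSmurf1, or 57.5% of control, although 735 of its exonic bases overlap TRRAP on the other strand. The library shSmurf1 replicate 3 stood apart from the other 3 of its group on the second principal component (11.6% of variance). Of 14 lens markers, PAX6 (33.3 CPM in shControl), SIX3 (16.2) and BFSP1 (3.71) reached 1 CPM in either group, while LIM2 had 0 counts and FOXE3, CRYAA and CDH1 had group means under 0.1 CPM. The lens markers summed to 52.9 to 56.1 CPM in shControl and 46.5 to 57.4 CPM in shSmurf1, and of the 3 tested SIX3, a homeobox regulator of eye development, fell to 12.6 CPM without overlap of the groups (log2 fold change −0.37, edgeR adjusted p = 0.0106). Of 12 markers of leukocytes, endothelium, melanocytes and neurons, 5 reached 1 CPM. They were SNAP25 (8.25 CPM in shControl), PMEL (2.18), VWF (1.76), MLANA (1.20) and SYP (1.185). The 12 summed to 15.1 to 16.2 CPM in shControl and 12.6 to 15.3 CPM in shSmurf1, and LYZ had 0 counts. Their part in the results below was not tested.

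AMOT, the founding angiomotin (ENSG00000126016, GRCh38 chromosome X, 112774503 to 112840815, minus strand), was scarce in control cells and about 6.16-fold higher with the SMURF1 hairpin. In the shControl libraries it lay at 3.76, 4.04, 4.11 and 3.28 CPM, resting on 52 to 66 counts each. In the shSmurf1 libraries it lay at 24.9, 22.8, 22.4 and 23.5 CPM, resting on 339 to 394 counts. All 4 shSmurf1 libraries thus stood well above all 4 shControl libraries, and the coefficient of variation within a group was 9.93% in shControl and 4.81% in shSmurf1. The log2 fold change was 2.62 ± 0.11 (SE, n = 4 each), and it stayed between 2.56 and 2.66 over 15 other settings. Gene counts do not separate the long and short AMOT isoforms, of which only the long one carries the YAP-binding motifs.

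AMOTL1, the second angiomotin (ENSG00000166025, chromosome 11, 94706431 to 94876753, plus strand), was slightly lower with the SMURF1 hairpin. Its level was 167, 175, 166 and 166 CPM in shControl and 149, 146, 147 and 158 CPM in shSmurf1. The groups did not overlap, with shSmurf1 at 89.0% of control and a log2 fold change of −0.17 ± 0.049. AMOTL2, the third angiomotin and itself a known target of YAP (ENSG00000114019, chromosome 3, 134355874 to 134375479, minus strand), had overlapping groups. It measured 123, 130, 125 and 124 CPM in shControl and 124, 124, 109 and 137 CPM in shSmurf1. The lowest and the highest of the 8 values were both shSmurf1 libraries, replicates 3 and 4. Its log2 fold change was −0.02 ± 0.061, and 0.035 without shSmurf1 replicate 3.

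**Figure D1:**
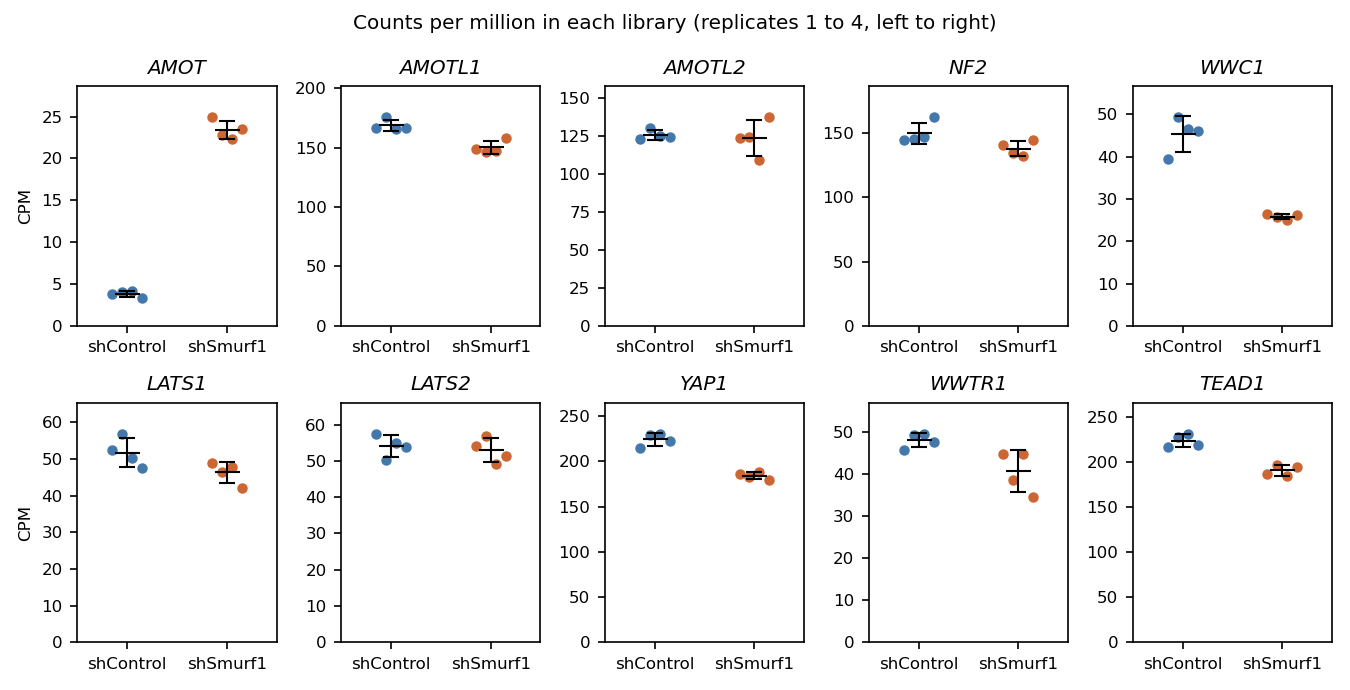
CPM (y axis, from 0) of each of the 10 genes in the 4 shControl and 4 shSmurf1 libraries. Points are libraries, the bar is the mean and the whiskers are the SD. AMOT is the 1 gene whose shSmurf1 points lie above all shControl points, and the WWC1 and YAP1 points of shSmurf1 lie below all of those of shControl.

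AMOT remained the minor angiomotin in both groups. Divided by exon length, the 3 genes together measured 37.6 to 39.7 CPM per kb in shControl and 35.5 to 41.4 in shSmurf1, ranges that overlap. AMOT made up 1.02 to 1.28% of that sum in shControl and 6.66 to 7.62% in shSmurf1. The share of AMOTL1 was 43.6 to 44.2% in shControl and 38.0 to 41.3% in shSmurf1, and that of AMOTL2 was 54.6 to 55.1% and 51.3 to 55.4%. Per kb, AMOT was 2.30 CPM higher, while AMOTL1 differed by −1.85 CPM and AMOTL2 by −0.34 CPM.

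**Figure D2:**
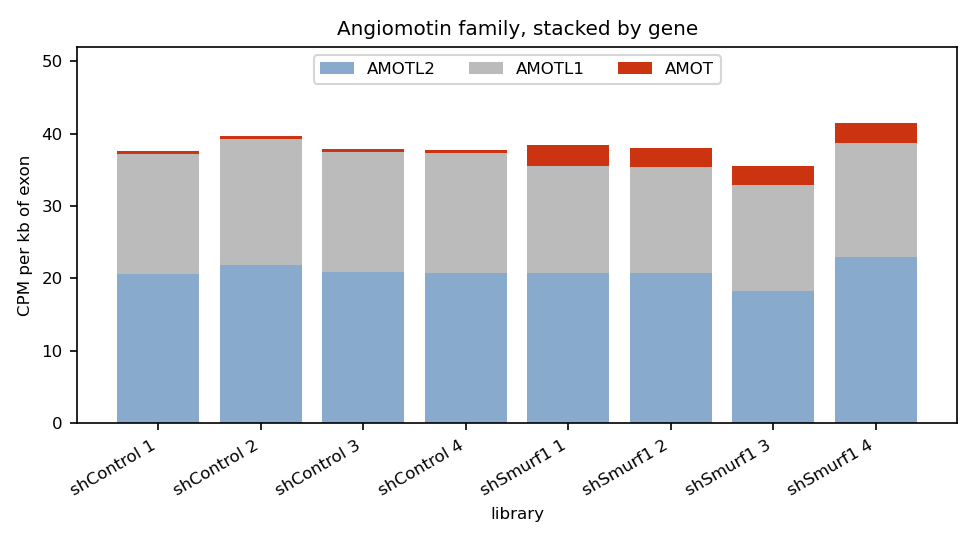
Stacked levels of AMOTL2, AMOTL1 and AMOT in CPM per kb of exon (y axis, from 0) for each library. The stacks reach 37.6 to 39.7 in shControl and 35.5 to 41.4 in shSmurf1, and the AMOT layer is thin in every library.

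The start-site region of AMOT is shown because AMOT had the largest fold change of the 10 genes. It is the RefSeq promoter on GRCh38.p14 at chrX:112840782-112841081, minus strand, from 250 bases before to 50 bases after the start, with a GC content of 67.7%:
AMOT: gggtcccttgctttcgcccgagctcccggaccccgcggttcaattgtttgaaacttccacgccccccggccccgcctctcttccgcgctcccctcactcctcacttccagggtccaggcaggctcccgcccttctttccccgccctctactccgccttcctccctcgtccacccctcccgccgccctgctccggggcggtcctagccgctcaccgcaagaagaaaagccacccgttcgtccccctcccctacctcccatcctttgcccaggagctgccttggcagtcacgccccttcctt
It holds neither the TEAD core letters CATTCC, nor the AP-1 letters TGANTCA, nor the SMAD-type letters CAGACA, searched on both strands. That says only that these letters are not in this window.

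Promoters of 9 of the 10 genes were matched in the RefSeq table, 13 windows in all because some genes have several starts. The TEAD letters were found in 3 of the 13 windows, those of AMOTL2, LATS2 and YAP1, while 4928 of all 35116 promoter windows of 300 bases hold them. The 3 stretches are printed because these genes encode or restrain the partner of TEAD, with the match in capitals:
AMOTL2: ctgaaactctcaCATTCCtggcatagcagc
LATS2: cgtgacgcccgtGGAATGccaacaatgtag
YAP1: cgggagtgtgcaGGAATGtagcaacttgca
They lie at chr3:134374499-134374528 (minus strand), chr13:21061560-21061589 (minus strand) and chr11:102110273-102110302 (plus strand), the first matched base being at −69, 10 and −162 from the start. The SMAD-type letters were found in 1 window each of AMOTL1, AMOTL2 and WWTR1, against 16.9% of all windows, and the AP-1 letters in 1 window of LATS1, against 7.71%. None of the 3 motifs overlapped another in these windows. The matches describe the letters and are not evidence of binding.

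WWC1, the KIBRA scaffold that promotes LATS activation and is also counted among YAP targets (ENSG00000113645, chromosome 5, 168291651 to 168472303, plus strand), was the furthest below control of the set. Its levels were 39.3, 49.3, 46.5 and 46.0 CPM in shControl and 26.3, 25.7, 24.9 and 26.3 CPM in shSmurf1. The groups did not overlap, and the 4 shSmurf1 libraries were tightly spaced, with a coefficient of variation of 2.54%. The log2 fold change was −0.81 ± 0.077, or 57.0% of control. NF2, the tumour suppressor merlin (ENSG00000186575, chromosome 22), was measured at 144, 145, 147 and 162 CPM in shControl and 140, 134, 132 and 145 CPM in shSmurf1. These ranges overlapped, and the log2 fold change was −0.12 ± 0.054, or −0.17 with each library's trend of expression on GC content removed.

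The LATS kinases differed little between the groups. LATS1 (ENSG00000131023, chromosome 6) lay at 52.3, 56.8, 50.1 and 47.4 CPM in shControl and at 48.9, 46.5, 47.7 and 42.1 CPM in shSmurf1 (log2 fold change −0.16 ± 0.071). LATS2 (ENSG00000150457, chromosome 13), which YAP is known to induce, lay at 57.5, 50.3, 55.1 and 53.9 CPM in shControl and at 54.2, 56.8, 49.2 and 51.4 CPM in shSmurf1 (−0.04 ± 0.065). Both genes had overlapping groups. Per kb of exon, the ratio of LATS2 to LATS1 was 1.63 ± 0.178 in shControl and 1.78 ± 0.144 in shSmurf1 (SD, n = 4 each), with overlapping ranges. Divided by the longest transcript, LATS2 and LATS1 stood at 9.83 and 6.87 CPM per kb in shControl and at 9.60 and 6.16 in shSmurf1.

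The coactivators and TEAD1 were all modestly lower. YAP1 (ENSG00000137693, chromosome 11, 102110461 to 102233423, plus strand) measured 215, 229, 231 and 223 CPM in shControl and 187, 183, 189 and 180 CPM in shSmurf1, with a log2 fold change of −0.28 ± 0.047. TEAD1, the DNA-binding partner (ENSG00000187079, chromosome 11, 12674591 to 12944483, plus strand), measured 216, 228, 231 and 219 CPM in shControl and 186, 197, 185 and 194 CPM in shSmurf1 (−0.23 ± 0.048). In both genes every shSmurf1 library lay below every shControl library.

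WWTR1, which encodes TAZ (ENSG00000018408, chromosome 3, 149517235 to 149736714, minus strand), was the least even of the 3. Its shControl libraries lay at 45.8, 49.1, 49.5 and 47.5 CPM and its shSmurf1 libraries at 44.7, 38.6, 44.7 and 34.6 CPM. The groups only just failed to overlap, since 2 shSmurf1 libraries sat directly beneath the lowest shControl library, and the coefficient of variation was 12.2% in shSmurf1 against 3.57% in shControl. The log2 fold change was −0.24 ± 0.079, and −0.17 without shSmurf1 replicate 4. Per kb of exon, YAP1 exceeded WWTR1 by a ratio of 6.25 ± 0.0289 in shControl and 6.12 ± 0.648 in shSmurf1. The size of this ratio depends on the length used. Divided by the longest transcript, YAP1 and WWTR1 stood at 41.6 and 9.54 CPM per kb in shControl and at 34.15 and 8.08 in shSmurf1.

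Removing each library's trend of expression on GC content moved low-GC and high-GC members in opposite directions. The 4 with the lowest GC content in their longest transcript were LATS1 (39.7%), WWTR1 (40.9%), TEAD1 (41.3%) and YAP1 (43.5%). With that trend removed, their log2 fold changes were −0.087, −0.18, −0.17 and −0.24 in place of −0.16, −0.24, −0.23 and −0.28. The 3 of highest GC content, AMOTL2 (56.7%), NF2 (56.0%) and WWC1 (54.4%), lay at −0.082, −0.17 and −0.85 in place of −0.02, −0.12 and −0.81. AMOT lay at 2.65. Without shSmurf1 replicate 3 the corresponding values were −0.17, −0.29, −0.21 and −0.29 for the first 4, 2.64 for AMOT and −0.79 for WWC1.

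Counted by the adjusted p under 0.05 of edgeR's quasi-likelihood test, with Benjamini-Hochberg adjustment over all 15647 genes, AMOT was higher, AMOTL1, WWC1, YAP1, WWTR1 and TEAD1 were lower, and the other 4 did not pass. The same threshold called 10.3% of all genes tested as higher and 12.2% as lower. Because the set was chosen on this contrast, nothing is read from the count of 1 and 5, or from which of the 10 passed here or in other settings. CPM ranges of the groups did not overlap in 6 of the 10, and in 23.7% of all genes tested. The median log2 fold change of the 10 was −0.16, against 0.0074 over all genes tested. AMOTL1 did not pass without shControl replicate 2 or without shSmurf1 replicate 2, and WWTR1 did not pass in 6 of the 15 other settings, so the count lower was 3 in each of those 2 fits. Without shSmurf1 replicate 3 the count was 1 higher and 6 lower, LATS1 being added.

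Ordered by level per kb of exon, YAP1 was the most abundant of the 10 in shControl, at 35.6 ± 1.11 CPM per kb (SD, n = 4). TEAD1 (21.8 ± 0.688), AMOTL2 (21.0 ± 0.545) and NF2 (20.9 ± 1.17) followed, each overlapping the next in range. Below them came AMOTL1 (16.8 ± 0.453), LATS2 (9.71 ± 0.536), LATS1 (5.98 ± 0.461) and WWTR1 (5.70 ± 0.203), of which only the last pair overlapped. WWC1 (4.49 ± 0.418) and AMOT (0.447 ± 0.0444) ended the order, each apart from the gene before it.

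In shSmurf1 the order began YAP1 (29.3 ± 0.624), AMOTL2 (20.7 ± 1.94), NF2 (19.2 ± 0.810) and TEAD1 (18.5 ± 0.575), where AMOTL2 overlapped NF2 and NF2 overlapped TEAD1. AMOT, at 2.75 ± 0.132 CPM per kb, stood above WWC1, at 2.56 ± 0.0651, without overlap. Dividing by the longest transcript instead of all exons put AMOT (3.20) below WWC1 (3.62), so the order of that pair depended on the length used. It also exchanged WWTR1 with LATS1 in both groups and AMOTL2 with TEAD1 in shControl.

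**Figure D3:**
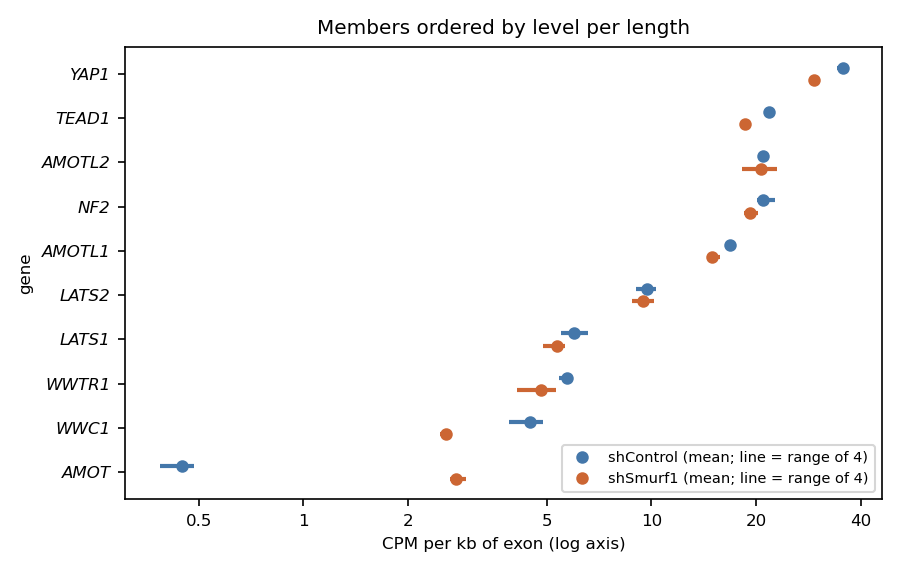
Level per length (CPM per kb of exon, log axis) of the 10 genes in shControl and shSmurf1, ordered by the shControl mean. Points are means and lines the range over 4 libraries. AMOT is the lowest gene in shControl at 0.447 and reaches 2.75 in shSmurf1, next to WWC1.

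Position was not used to choose the genes, and their chromosomal neighbours were therefore examined. Around AMOT, the 10 nearest tested protein-coding genes on each side spanned 11.3 Mb of chromosome X and had a median log2 fold change of −0.010, from −0.56 to 0.91. All 20 lay below the value of AMOT, which follows largely from its choice as one of the most changed genes. By the test 5 of the 20 rose and 4 fell, where 10.3% of all genes tested rose and 12.2% fell. The nearest on either side were ALG13, a subunit of an early N-glycosylation enzyme (−0.09 ± 0.086), and IL13RA2, a decoy receptor for interleukin-13 (−0.0022 ± 0.16), and neither passed the test.

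Around WWC1 the 20 neighbours had a median of −0.097. By the test 2 of them rose and 5 fell, where 10.3% of all genes tested rose and 12.2% fell. TENM2, a teneurin adhesion receptor next to WWC1 on the side of lower coordinates and named after its value was seen, fell from 215 to 118 CPM (log2 fold change −0.87 ± 0.058, edgeR adjusted p = 1.68e-09). It was the 1 neighbour of the 20 below WWC1. On the other side RARS, an arginyl-tRNA synthetase also named after its value was seen, did not pass (−0.10 ± 0.061). PANK3, the next gene and likewise named after its value was seen, fell (−0.35 ± 0.055, edgeR adjusted p = 0.000109). The 2 neighbours that rose, SPDL1 (0.25 ± 0.056) and DOCK2 (0.36 ± 0.075), lay further along the same side.

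WWTR1 lay closest to its surroundings among the lower members. Its 20 neighbours had a median log2 fold change of −0.17, and WWTR1 differed from that median by −0.067. By the test 7 of these neighbours were lower and 3 higher, where 12.2% of all genes tested were lower and 10.3% higher. For YAP1 the neighbours' median was −0.050 and 17 of 20 lay above it, and for TEAD1 it was −0.071 and 16 of 20 lay above. AMOTL1 and NF2 each had 19 of 20 neighbours above them, with medians of 0.041 and 0.093. With 20 neighbours on each side, 28 of 40 lay above AMOTL1 and 34 of 40 above NF2, with medians of −0.018 and 0.051. WWTR1 then differed from its neighbours' median by −0.13. The neighbours of AMOTL1 and YAP1 are partly the same genes.

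**Figure D4:**
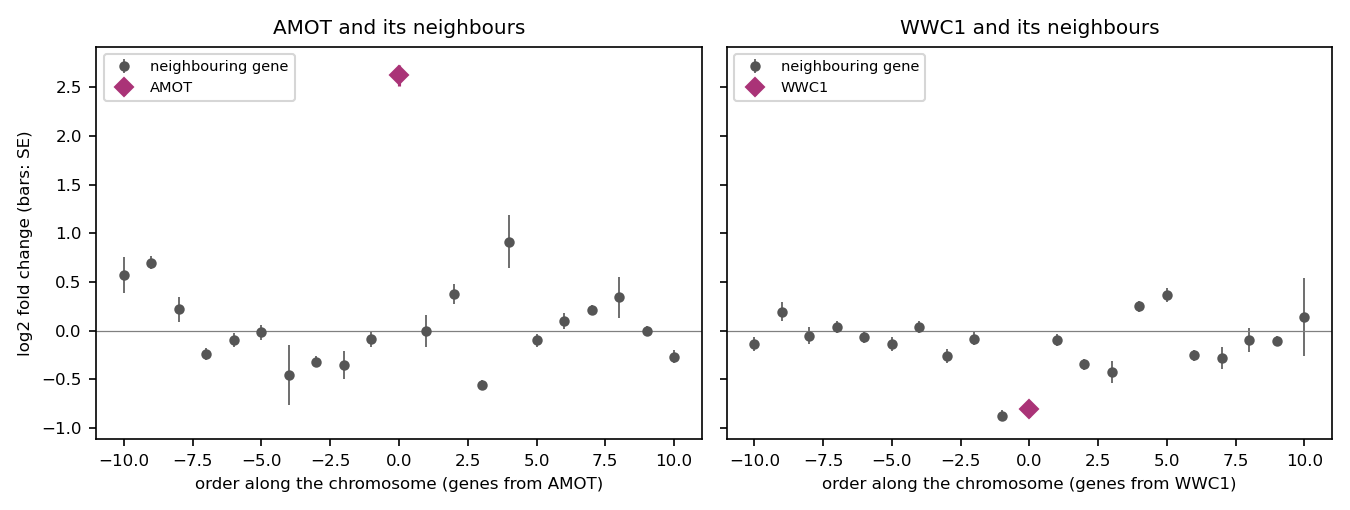
Log2 fold change (y axis, bars are SE) of AMOT and WWC1 and of the 10 nearest tested protein-coding genes on each side, in order along the chromosome (x axis, steps from the gene). AMOT, chosen as one of the most changed genes, stands above all 20 of its neighbours. TENM2, 1 step to the left of WWC1, is at −0.87 beside −0.81 for WWC1.

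The genes with the profile most like AMOT over the 8 libraries were RCAN2, a calcineurin regulator, GPRIN3, and CXCL8, the chemokine interleukin-8. Likeness was the mean absolute difference of log2 CPM, each gene centred on its shControl mean, among 11219 protein-coding genes (average log2 CPM of 2 or more). It was 0.241, 0.293 and 0.377 for the 3. RCAN2 rested on 14 to 23 and GPRIN3 on 20 to 26 counts per shControl library, and CXCL8 spread from 19.8 to 45.1 CPM in shSmurf1. Low counts and spread between libraries widen this measure, so it cannot show how unusual AMOT was among these profiles. Those nearest to WWC1 were CCN2, connective tissue growth factor and a standard YAP target (0.0471), SMURF1 itself (0.050) and TAGLN, the smooth muscle actin-binding protein transgelin (0.0536). Their log2 fold changes were −0.81 ± 0.053, −0.80 ± 0.055 and −0.85 ± 0.053. Such a measure mostly reflects the size of the difference between the groups.

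The rest of the Hippo pathway was examined in 8 lists by role, holding 83 genes outside the 10, of which 75 were tested. By edgeR's adjusted p, 6 rose and 21 fell, or 36.0% of those tested against 22.5% of all genes. The lists were chosen with earlier results of these data known, so this share is a description. For the counts of each list below, the shares over all genes tested were 10.3% higher and 12.2% lower. The median log2 fold change was −0.065. Without shSmurf1 replicate 3, 16 rose and 26 fell, and over all genes 2601 then rose and 2747 fell, against 1611 and 1916 with every library. At an unadjusted p under 0.05 in edgeR, 2529 of all genes tested rose and 2722 fell. With DESeq2 1602 rose and 1951 fell.

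In the kinase cassette around LATS, which here includes kinases related to LATS, 0 of 7 genes rose and 1 fell by edgeR's adjusted p. The counts were also 0 and 1 at an unadjusted p under 0.05 and with DESeq2. The gene that fell was STK38, a kinase related to LATS (110 ± 2.49 to 94.4 ± 3.13 CPM, −0.22 ± 0.051). The Hippo kinases STK3 and STK4, which encode MST2 and MST1, had log2 fold changes of 0.06 ± 0.095 and −0.02 ± 0.054 and did not pass. With the GC trend removed, 2 of the 7 were higher, where 2058 genes were higher over all genes, against 1611 in the main test. Of 10 TAO and MAP4K kinases, which act on LATS or MST, 2 rose and 4 fell. MAP4K5 (108 ± 1.86 to 85.1 ± 8.08 CPM, −0.34 ± 0.062), TNIK (−0.26 ± 0.062) and TAOK3 (−0.23 ± 0.067) were among those that fell, and MINK1 (0.23 ± 0.065) and MAP4K4 (0.15 ± 0.046) rose. MINK1, MAP4K4 and TAOK3 did not pass in 3, 7 and 4 of 15 other settings.

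Scaffolds of junctions and polarity upstream of LATS mostly fell where they passed: of 16 tested, 1 rose and 6 fell. FRMD6, the FERM-domain protein related to Drosophila Expanded, fell from 202 ± 2.38 to 145 ± 8.67 CPM (−0.47 ± 0.051, edgeR adjusted p = 1.42e-06). MAGI1, a junction scaffold (−0.39 ± 0.10), and PTPN14, a phosphatase that binds YAP (−0.38 ± 0.049), also fell, while LLGL2, a basolateral polarity protein, rose from 13.4 ± 1.71 to 19.7 ± 3.44 CPM (0.56 ± 0.12). The WWC1 paralogs WWC2 and WWC3 did not pass, at −0.11 ± 0.058 and 0.12 ± 0.058, and were named after their values were seen. In the fit without shSmurf1 replicate 3, 4 scaffolds rose and 6 fell.

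FAT and Dachsous cadherins, large adhesion molecules upstream of the pathway, moved in both directions. Of 6 tested, FAT4 fell from 38.3 ± 1.88 to 24.4 ± 2.55 CPM (−0.65 ± 0.081), FAT3 fell from 111 ± 4.55 to 73.8 ± 7.14 CPM (−0.59 ± 0.065), and FJX1, whose Drosophila relative phosphorylates such cadherins, fell (−0.42 ± 0.092). DCHS1, which encodes a FAT4 ligand, rose from 135 ± 4.83 to 185 ± 27.6 CPM (0.45 ± 0.080). FAT1, the most abundant by CPM at 702 in shControl, did not pass (0.04 ± 0.051). Of these genes, 2 rose and 3 fell without shSmurf1 replicate 3.

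Among 5 inhibitors of LATS, the LIM proteins AJUBA, LIMD1 and WTIP and the kinases NUAK1 and NUAK2, 0 rose and 0 fell (edgeR; also 0 and 0 at an unadjusted p under 0.05 and with DESeq2), with 1 higher without shSmurf1 replicate 3. Of 14 tested genes of STRIPAK, a phosphatase complex that dephosphorylates MST kinases, STK24 rose (0.20 ± 0.056) and 4 fell, led by SIKE1 (58.5 ± 1.28 to 45.1 ± 5.62 CPM, −0.38 ± 0.076), FGFR1OP2 (−0.26 ± 0.076) and STRN, a striatin (−0.23 ± 0.064). FARP1 overlaps 63.2% of the exon length of STK24 on the other strand, and STK24, FGFR1OP2 and STRN did not pass in 2, 4 and 1 of 15 other settings. There were 3 STRIPAK genes higher and 6 lower without shSmurf1 replicate 3.

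Among TEAD factors and VGLL cofactors other than TEAD1, 0 of 5 tested genes rose and 1 fell (edgeR; 1 rose at an unadjusted p under 0.05 and 0 with DESeq2; 1 rose without shSmurf1 replicate 3). VGLL3, a cofactor that competes with YAP for TEAD, fell from 129 ± 7.24 to 87.3 ± 5.79 CPM (−0.57 ± 0.059, edgeR adjusted p = 9.62e-07). TEAD2, TEAD3 and TEAD4 did not pass, at 0.21 ± 0.084, −0.13 ± 0.082 and −0.12 ± 0.062. With the GC trend removed, 3 of the 5 were lower, where 2355 genes were lower over all genes, against 1916 in the main test.

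Of 12 enzymes that set angiomotin, LATS or YAP protein levels, 1 rose and 2 fell. CSNK1D, a casein kinase that primes YAP for degradation, rose from 168 ± 1.73 to 225 ± 17.5 CPM (0.42 ± 0.055), and it shares 482 exonic bases with SLC16A3 on the other strand. The NEDD4-family ligases NEDD4L (60.0 ± 1.72 to 45.1 ± 2.24 CPM, −0.41 ± 0.061) and NEDD4 (−0.26 ± 0.072) fell. TNKS, TNKS2 and RNF146, which mark angiomotins for degradation, and USP9X, which removes ubiquitin from them, had log2 fold changes of −0.01 ± 0.061, 0.06 ± 0.059, −0.01 ± 0.071 and 0.01 ± 0.045 and did not pass.

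Most measured targets of YAP and TAZ outside the 10 genes fell. Of 20 genes of a conserved target set, 13 fell and 0 rose by edgeR's adjusted p, against 12.2% and 10.3% of all genes. The median log2 fold change was −0.35. At an unadjusted p under 0.05, 2 of the 20 were higher, where 2529 of all 15647 genes were, and with DESeq2 0 were higher. FJX1, PTPN14 and NUAK2 of this set are also in the Hippo lists above, and FJX1 and PTPN14 count among the fallen in both. ANKRD1, a cardiac ankyrin repeat protein (−1.18 ± 0.071), CCN1 (−0.89 ± 0.048) and CCN2 fell furthest. CCN1 and CCN2 are secreted matricellular factors. AXL, a receptor kinase and the most abundant of the set by CPM, did not pass (2372 to 2343 CPM, −0.02 ± 0.044). AMOTL2 and LATS2, the 2 genes of this target set that belong to the Hippo core, had log2 fold changes of −0.02 and −0.04. Without shSmurf1 replicate 3, 14 targets fell and 1 rose. The lower counts of such targets were known from these data beforehand and are not independent support.

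**Figure D5:**
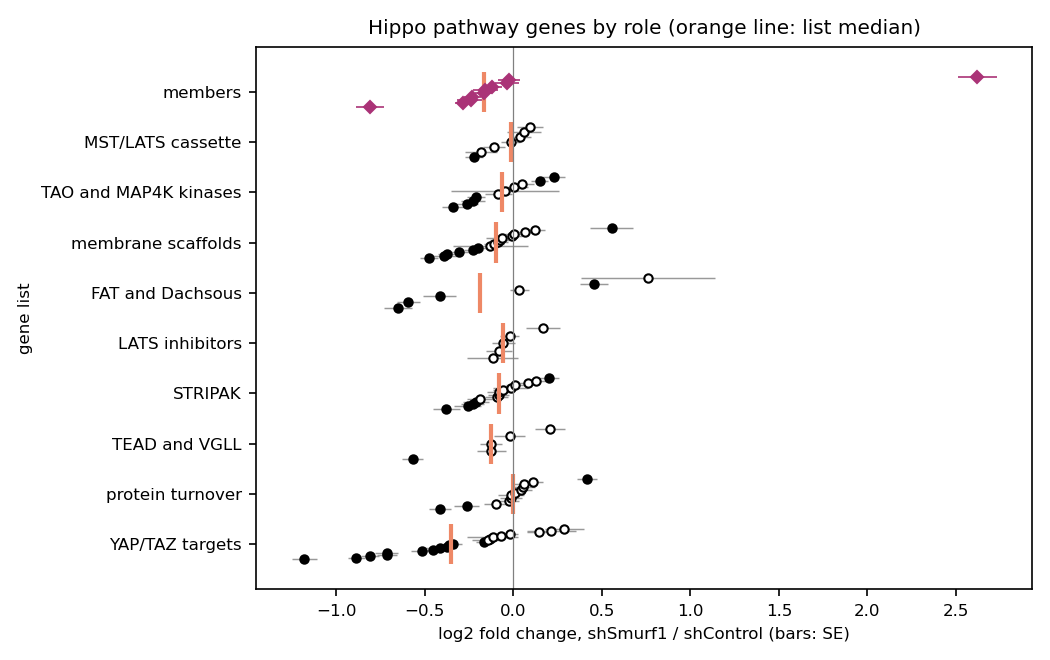
Log2 fold change, shSmurf1 over shControl (x axis, bars are SE), for the 10 members (diamonds, shown without a test) and for genes of each Hippo role and the YAP and TAZ targets (filled circles passed edgeR's adjusted p under 0.05, open circles did not). Orange lines are list medians, −0.16 for the members and −0.35 for the targets.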

How the data were processed

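The deposited table holds raw read counts per gene for 8 libraries, for which the authors name featureCounts (version 1.5.0-p3), HISAT2 (version 2.0.5), fastp and CASAVA, per the submitters' processing notes. Their genome build is not given in the sources consulted. All 58735 identifiers matched GENCODE release 29 (GRCh38), which supplied symbols, positions, exon lengths and GC content. The library preparation described in the labels' protocols does not mark strand. Reads in a stretch where genes on opposite strands overlap therefore cannot be assigned by strand.

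Genes were kept by edgeR's filterByExpr (minimum count 10). The main test was edgeR version 4.0.16 in R version 4.3.3, quasi-likelihood, two-sided, TMM scaling, no covariate, Benjamini-Hochberg adjustment. Standard errors are log2 fold changes over the square root of F. CPM uses TMM-scaled totals. The test was tested on simulated counts. The other settings, 15 in all, were DESeq2 size factors, unscaled totals, DESeq2 version 1.42.0, 2 filters on low counts, the replicate number as a block, removal of each library's GC trend, and leaving out each library. No pairing of replicates is stated in the labels.

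Named genes were the 10 members, SMURF1, up to 3 changed genes per direction and list, the 3 most similar profiles for AMOT and WWC1, and the nearest gene on each side of AMOT. Other genes, such as list members that did not pass, were named after their values were seen. The members and lists were chosen with earlier results of these data known. Protein sequences were not used here.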

Additional observations from a re-analysis of the deposited data

Results flagged for a closer look

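In 5 of 72 groups of 4 libraries examined for a single distant value, 1 library lay far from the other 3 by Dixon's test, which chance does in about 1 group of 20. AMOTL1 was at 175 CPM in shControl replicate 2 against 166 to 167 CPM in the others. NF2 was at 162 CPM in shControl replicate 4 against 144 to 147 CPM. FRMD6 was at 205 CPM in shControl replicate 3 against 201 CPM or slightly less in the others. DCHS1 was at 128 CPM in shControl replicate 4 against 137 to 138 CPM. VGLL3 was at 95.9 CPM in shSmurf1 replicate 3 against 83.9 to 84.8 CPM, and all 4 values lie below those of shControl.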

How the results depend on the processing

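Leaving out each library in turn moved the genes called higher over all genes from 1216 to 2601 and those called lower from 1547 to 2747. Among the 10 members it gave 1 higher in every case and 3 to 6 lower. Among Hippo genes outside the members it gave 4 to 16 higher and 17 to 26 lower, the highest of each without shSmurf1 replicate 3. For YAP and TAZ targets it gave 0 to 1 higher and 11 to 14 lower, and 1 was higher with unscaled totals and with the GC trend removed. With 5 neighbours on each side the median log2 fold change was −0.093 around AMOT and 0.053 around AMOTL2, and with 20 it was −0.014 around AMOTL2, against −0.010 and −0.10. Dividing by the longest transcript kept 6 of 10 ranks in shControl and 6 in shSmurf1. Same-numbered libraries had correlations of deviations from −0.067 to 0.032. With 4 libraries per group, such values cannot decide whether the numbers pair the samples. The replicate block gave 1418 higher and 1774 lower over all genes, 1 and 5 among members, 5 and 20 among other Hippo genes, and 0 and 12 among targets. The sign of 9 of the 10 members held in all 15 other settings, AMOTL2 being the exception. Depth limits AMOT most, at 52 to 66 counts per shControl library.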
